A study of Mus musculus with 78 samples.

Results

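The interstitial collagens build the fibres, microfilaments and fibre surfaces of the connective tissue between cells. The 9 genes described here were chosen by name: COL1A1, COL1A2, COL3A1, COL5A1, COL5A2, COL6A2, COL6A3, COL8A1 and COL12A1. All 9 were on the panel and among the 2205 genes tested, so the filter on low values removed 0 of 9.

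RNA from formalin-fixed, paraffin-embedded liver of male B6C3F1 mice had been counted with TempO-Seq, in which detector oligos are joined on a target RNA and sequenced. The treated mice had received dichloroacetic acid (DCA) at 3.5 g/L in their drinking water and S1 mice had stopped at week 10, S2 mice at week 32 and S3 mice at week 57, whereas Direct mice went on to week 78. The number after the hyphen in a group's name is the week of collection. Controls drank deionized water alone, as did stopped mice after their exposure. Each library is 1 mouse.

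Exposure lasted until collection in S1-10 (n = 6), S2-32 (n = 6), S3-57 (n = 5) and Direct-78 (n = 3). It had ended 22 weeks earlier in S1-32, 47 weeks earlier in S1-57 and 68 weeks earlier in S1-78 (n = 6 each), 46 weeks earlier in S2-78 (n = 4) and 21 weeks earlier in S3-78 (n = 4). The control groups were Control-10 (n = 4), Control-32, Control-57 and Control-78 (n = 6 each). These are the 68 libraries that the authors kept of 78. Depth differed between groups: the 3 Direct-78 libraries held 541245 to 699825 total counts, the 6 Control-78 libraries 2098777 to 4285848, and the median over the 68 libraries was 2162678. Totals in S3-78 (1154431 to 1936370) also lay below Control-78. Those in S3-57 (at most 2030701) lay below Control-57 (at least 2223516), and those in S1-32 (at least 2979117) above Control-32 (at most 2731045). Control-57 lay above Control-10 (at most 2206672). Depth and group cannot be told apart in these comparisons. Values of single libraries are listed in order of mouse number. Whether ranges overlapped is a description, and the share of all genes without overlap was not counted. Levels are given in CPM, the counts scaled to the library's total over the tested genes after TMM normalisation, and a floor of 3 counts per library covers counting error only.

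As background, collagen I, built from COL1A1 and COL1A2 chains, and collagen III, built from COL3A1 chains, form the bulk of the fibrils in connective tissue, and collagen V lies inside those fibrils and limits their width. Collagen VI forms beaded microfilaments close to cells, collagen VIII forms networks beneath some endothelial and vessel walls, and collagen XII decorates the surface of fibrils. In the liver these genes are transcribed mainly by stellate cells, portal fibroblasts and other mesenchymal cells, and collagens I and III are the main collagens of scar tissue.

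The promoter entries of COL1A2 and COL3A1 are shown because both genes rose in the same treated group, S1-78. RefSeq promoter sequences (GRCm38.p6, 300 bases each, of which 250 lie before the start site) matched 6 of the 9 members, with 7 entries because COL6A2 has 2. COL1A1, COL5A2 and COL12A1 had no entry. The Col1a2 entry lies at chr6:4505368-4505667 and the Col3a1 entry at chr1:45311288-45311587, both on the plus strand, and capitals mark matches on either strand to 3 motifs, the CCAAT box (CCAAT), the TATA box (spelled TATAAA) and the GC box (spelled GGGCGG).
Col1a2: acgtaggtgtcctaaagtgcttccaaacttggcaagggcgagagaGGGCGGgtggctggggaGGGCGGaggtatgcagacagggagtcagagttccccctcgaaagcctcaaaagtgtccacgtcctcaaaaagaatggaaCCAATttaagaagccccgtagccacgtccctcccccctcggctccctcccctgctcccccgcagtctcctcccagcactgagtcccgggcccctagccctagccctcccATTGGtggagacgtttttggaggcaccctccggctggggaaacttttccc
Col3a1: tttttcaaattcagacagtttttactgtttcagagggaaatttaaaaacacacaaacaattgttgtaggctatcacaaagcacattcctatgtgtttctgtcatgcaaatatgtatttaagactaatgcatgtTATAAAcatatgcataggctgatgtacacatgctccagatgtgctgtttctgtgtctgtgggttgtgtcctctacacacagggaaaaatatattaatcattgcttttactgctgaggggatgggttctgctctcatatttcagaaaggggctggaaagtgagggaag
The Col3a1 start site is the first base of the annotated gene, whereas the annotated Col1a2 gene begins at 4504814, so the whole Col1a2 entry lies inside it. Col1a2 holds 2 matches to CCAAT, at -109 to -105 on the plus strand and at 1 to 5 on the minus strand, counted from the start site, and 2 matches to GGGCGG at -205 to -200 and -188 to -183. Col3a1 holds a single match, to TATAAA at -117 to -112. No match overlapped a match of another motif in either sequence. Of 32851 promoters of the same length, 37.4% held CCAAT, 13.6% held TATAAA and 35.7% held GGGCGG. Among the 7 member entries, CCAAT was in 1, TATAAA in 1 and GGGCGG in 5. A match is a description of letters in this window.

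**Figure D1:**
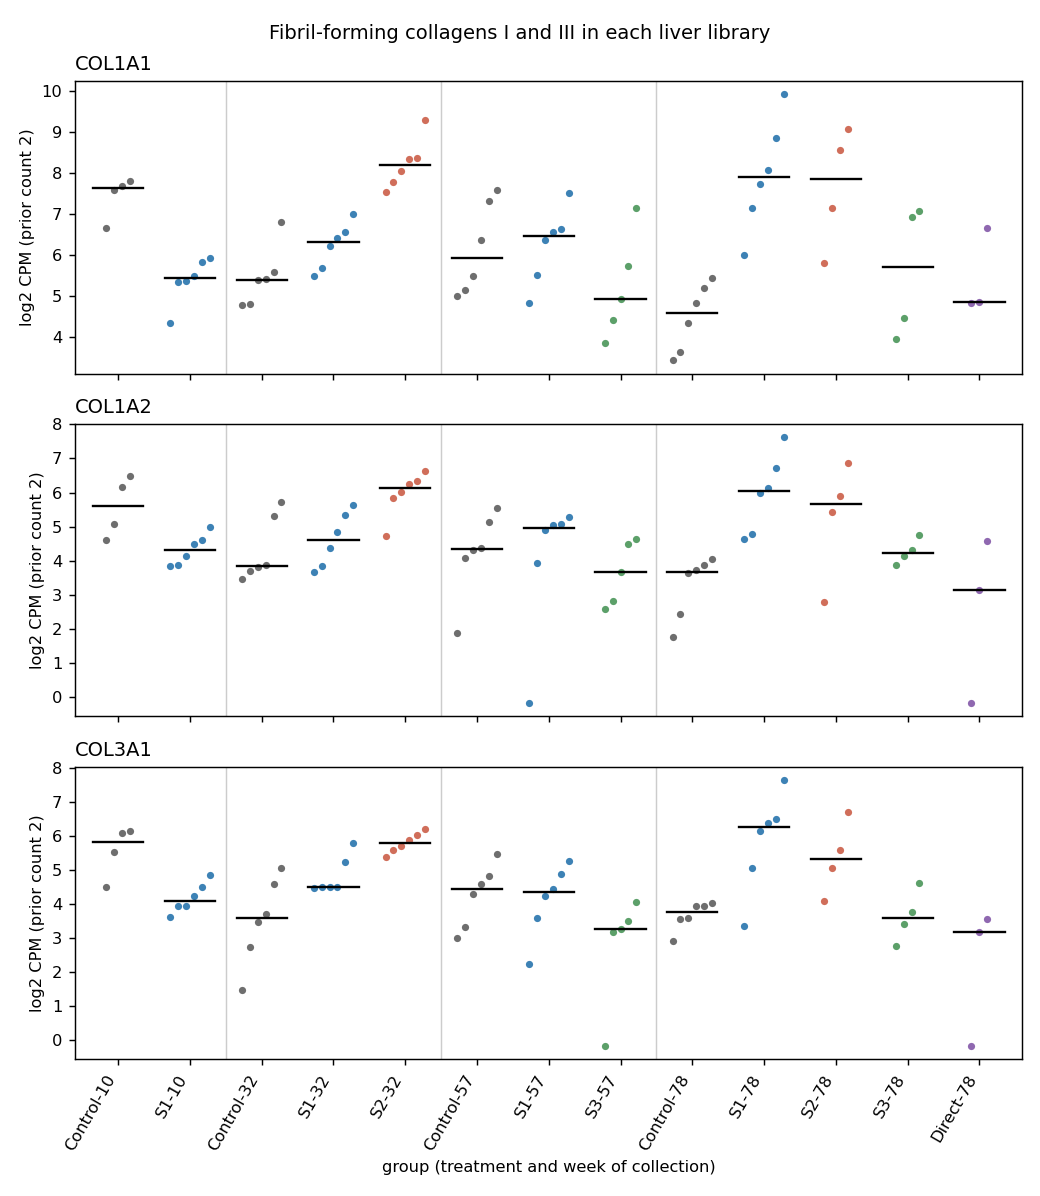
Level of COL1A1, COL1A2 and COL3A1 in each of the 68 libraries as log2 CPM with a prior count of 2, by group, with controls in grey, S1 in blue, S2 in red, S3 in green and Direct in purple, and black bars at group medians. All S1-78 libraries for COL1A1, from 63.8 to 970.4 CPM, lie above the highest Control-78 library at 42.5 CPM.

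The fibril-forming chains carried most of the treatment changes. After a 10-week exposure COL1A1 was lower than in age-matched controls while DCA was still being given, and it was higher 68 weeks after the exposure had ended. The call of the fall was lost in 9 of the 10 fits that each left out a library, and that of the rise in 0 of 12. In a fit of only the 2 compared groups the rise was not called. COL1A1 and COL3A1 were also higher at the end of the 32-week exposure. The plot of the fibrillar collagens by library shows this spread mouse by mouse.

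COL1A1 (chr11:94936224-94953042, plus strand, GRCm38) encodes a chain of collagen I, the main fibrillar collagen of skin, bone and scar. At 10 weeks the 4 controls held 101, 224, 204 and 191 CPM. The 6 S1-10 libraries ran from 19.3 to 60.7 CPM (median 42.5). All 6 S1-10 libraries lay below the lowest control, and COL1A1 fell (log2 fold change -2.05, SE 0.62, edgeR adjusted p = 0.0338). In whole liver, fewer cells of a type and less RNA per cell cannot be told apart. The call was lost when any 1 of mice 13 to 18 of S1-10, or of mice 68, 69 and 71 of Control-10, was left out, with log2 fold changes from -2.24 to -1.89 over the 10 fits that each left out a library.

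At 32 weeks COL1A1 ran from 26.5 to 111 CPM (median 41.6) in controls. In S2-32, at the end of exposure, it ran from 185 to 628 CPM (median 296), and in S1-32, off DCA for 22 weeks, from 44.5 to 128 CPM (median 79.8). Every S2-32 library lay above the highest control, whereas the S1-32 libraries overlapped with the controls. COL1A1 rose in S2-32 (log2 fold change 2.72, SE 0.59, edgeR adjusted p = 0.00335) and did not pass the test in S1-32 (log2 fold change 0.68, SE 0.56, edgeR adjusted p = 0.353).

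At 57 weeks COL1A1 ran from 31.5 to 194 CPM (median 62.9) in controls and from 27.5 to 181 CPM (median 88.1) in S1-57. The 5 S3-57 libraries held 52.4, 29.9, 20.6, 13.7 and 140.4 CPM. Both treated groups overlapped with the controls, and in S3-57 mouse 54 stood above the other mice. Neither passed the test, with a log2 fold change of -0.04 (95% interval -1.12 to 1.04) in S1-57 and -0.82 (95% interval -1.98 to 0.33) in S3-57.

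At 78 weeks the controls ran from 9.97 to 42.5 CPM (median 23.7) of COL1A1. S1-78 ran from 63.8 to 970.4 CPM (median 241), and the 4 S2-78 libraries held 539.7, 381, 142 and 55.1 CPM. Each library of both groups lay above the highest control, and within S1-78 the highest library, mouse 36, was far from the lowest, mouse 32. COL1A1 rose in S1-78 (log2 fold change 3.83, SE 0.62, edgeR adjusted p = 0.000116) and in S2-78 (log2 fold change 3.50, SE 0.64, edgeR adjusted p = 0.000682), comparisons that share their controls. Without mouse 36 the log2 fold change in S1-78 was 3.22, and in a fit of only the 2 compared groups neither call was made.

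In mice exposed for longer, COL1A1 at 78 weeks was 21.4, 14.8, 134 and 122 CPM in S3-78 and 27.7, 101 and 28.4 CPM in Direct-78. Mice 59 and 60 of S3-78 and mouse 65 of Direct-78 stood above every Control-78 library, and the other libraries of both groups lay within the control range. Neither group passed the test for COL1A1 (S3-78: log2 fold change 1.55, SE 0.62, edgeR adjusted p = 0.0827). For Direct-78 the log2 fold change was 1.08 with a 95% interval of -0.25 to 2.41. S3-78 was called with RLE factors, with upper-quartile factors, with DESeq2, without libraries high in pancreas markers and without mouse 56 of S3-78 (log2 fold change 2.01), with adjusted p from 0.0217 to 0.343 over all alternatives in edgeR and DESeq2.

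COL1A2 (chr6:4504814-4541544, plus strand), whose promoter entry is printed above, encodes the partner chain of collagen I. At 78 weeks it ran from 2.50 to 15.7 CPM (median 12.0) in controls and from 24.2 to 196 CPM (median 65.8) in S1-78. The 4 S2-78 libraries held 116, 59.2, 42.2 and 6.03 CPM. All S1-78 libraries lay above the controls, and in S2-78 mouse 47 lay inside the control range while the other 3 lay above it. COL1A2 rose in S1-78 (log2 fold change 2.98, SE 0.64, edgeR adjusted p = 0.00389) and in S2-78 (log2 fold change 2.45, SE 0.67, edgeR adjusted p = 0.0352). The S2-78 call was lost without mouse 43 or 44 of S2-78 or any single control, with log2 fold changes from 1.82 to 2.82 over the 10 fits, and the S1-78 call only in the fit of the 2 compared groups.

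In the other groups COL1A2 overlapped with age-matched controls. In S2-32 it ran from 25.5 to 98.4 CPM (median 69.8) against 10.3 to 52.3 CPM (median 13.6) in Control-32 and did not pass the test (log2 fold change 1.49, SE 0.60, edgeR adjusted p = 0.0985). Mouse 74 was the highest of these controls, and without it the log2 fold change was 1.90 and COL1A2 was called, with adjusted p from 0.0273 to 0.229 over all alternatives in edgeR and DESeq2. In S1-10 it ran from 13.6 to 31.3 CPM (median 19.2), overlapping with 33, 89.2, 23.5 and 70.6 CPM in Control-10, and had an unadjusted p under 0.05 without passing the test (log2 fold change -1.43, SE 0.65, edgeR adjusted p = 0.194). The 3 Direct-78 libraries held 7.91, 0 and 23 CPM.

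COL3A1 (chr1:45311538-45349706, plus strand), whose promoter entry is the other one printed, encodes the chain of collagen III, a fibrillar collagen abundant in vessel walls and young scar. At 78 weeks it ran from 6.64 to 15.7 CPM (median 12.8) in controls and from 9.4 to 199 CPM (median 76.4) in S1-78. The 4 S2-78 libraries held 104, 47.1, 16.2 and 32.7 CPM. In S1-78 mouse 32 lay within the control range and 5 of 6 lay above it, and all 4 S2-78 libraries lay above the controls. COL3A1 rose in S1-78 (log2 fold change 2.71, SE 0.58, edgeR adjusted p = 0.00407) and did not pass the test in S2-78 (log2 fold change 2.01, SE 0.61, edgeR adjusted p = 0.0660). It was called in S2-78 without mouse 45 (log2 fold change 2.35), with RLE or upper-quartile factors, with DESeq2 and without libraries high in pancreas markers, with adjusted p from 0.00705 to 0.336 over all alternatives in edgeR and DESeq2.

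At 32 weeks COL3A1 ran from 1.87 to 32.4 CPM (median 11.3) in controls and from 40.8 to 73.5 CPM (median 54.6) in S2-32. Every S2-32 library lay above the highest control, and COL3A1 rose (log2 fold change 1.95, SE 0.57, edgeR adjusted p = 0.0212). That call was lost without mouse 78 of Control-32, the lowest control (log2 fold change 1.65), and with all 78 libraries. In S1-32 it ran from 21.5 to 55 CPM (median 21.8), overlapping with the controls (log2 fold change 1.04, SE 0.56, edgeR adjusted p = 0.150). The 5 S3-57 libraries held 8.83, 15.9, 0, 10.4 and 8.26 CPM, against 7.23 to 43.5 CPM in Control-57, with an unadjusted p under 0.05 that did not pass the test (log2 fold change -1.3, SE 0.60, edgeR adjusted p = 0.211).

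**Figure D2:**
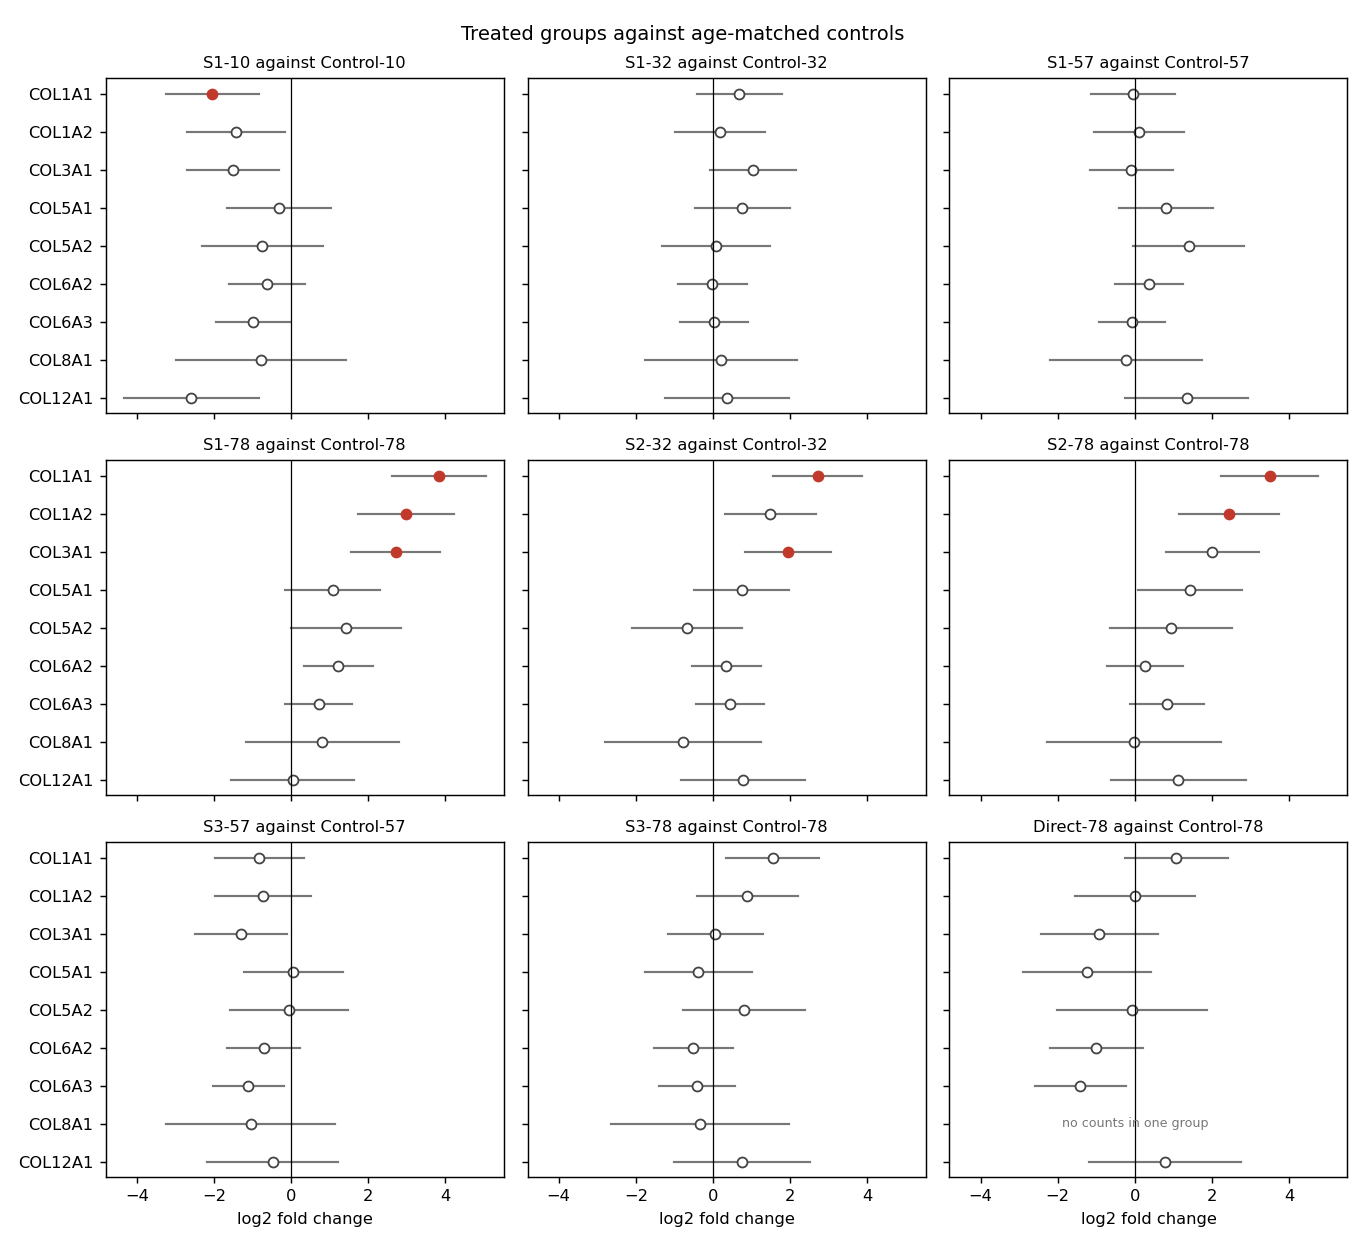
Log2 fold change of each member in each of the 9 treated groups against age-matched controls, with bars for 95% intervals from the standard error, filled red where called and open where not. The filled points are COL1A1 in S1-10, S2-32, S1-78 and S2-78, COL1A2 in S1-78 and S2-78, and COL3A1 in S2-32 and S1-78.

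Counted over the 9 members, S1-10 had 1 member called lower (COL1A1), where 4.4% of the 2205 genes were called lower, and none higher. The median log2 fold change in S1-10 was -0.99 over the members and -0.03 over all genes. In S2-32, 2 members were called higher (COL1A1 and COL3A1), where 3.45% of all genes were called higher, with medians of 0.75 and 0.05. Leaving out control mouse 78 made the S2-32 count 1, COL1A1, and leaving out control mouse 74 made it 3, with COL1A2 added. The S1-10 count was 0 when any 1 of the 9 libraries named above for COL1A1 was left out.

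At 78 weeks, S1-78 had 3 members called higher (COL1A1, COL1A2 and COL3A1), where 0.998% of the 2205 genes were called higher, and the medians were 1.23 over members and 0.07 over all genes. In S1-78 all 9 members had a log2 fold change above 0, also with RLE and upper-quartile factors. S2-78 had 2 called higher (COL1A1 and COL1A2), where 0.816% of all genes were called higher, with medians of 1.13 and 0.06. The S2-78 count was 1, COL1A1, without mouse 43 or 44 of S2-78, or without any 1 of mice 85 to 90 of Control-78, and it was 3 without mouse 45, when COL3A1 was added. The S1-78 count was 3 in each of the 12 fits that left out a library, and 0 in the fit of the 2 compared groups, where no gene of the 2205 was called.

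In the other 5 treated groups edgeR called 0 of 9 members. In S1-32, 29.1% of all genes were called in either direction. There, 0 of 9 members and 933 of 2205 genes had an unadjusted p under 0.05, and DESeq2 called 0 of 9. When mouse 74 of Control-32 was left out, the S1-32 count was 1, COL3A1, called higher. In S1-57 the share of all genes called was 1.59%. In that group 0 of 9 members and 293 of 2205 genes had an unadjusted p under 0.05, and DESeq2 called 0 of 9. For S3-57 that share was 6.39%. In S3-57, 2 of 9 members and 424 of 2205 genes had an unadjusted p under 0.05, and DESeq2 called 0 of 9.

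S3-78 against its controls had 13.3% of all genes called in either direction and 0 members by edgeR. Of these, 1 of 9 members and 626 of 2205 genes had an unadjusted p under 0.05, and DESeq2 called 1 of 9. That DESeq2 call was COL1A1, which was also called in edgeR without mouse 56. Direct-78 had 24.4% of all genes called and 0 members by edgeR. In Direct-78, 2 of 9 members and 852 of 2205 genes had an unadjusted p under 0.05, and DESeq2 called 0 of 9. Without mouse 65, the Direct-78 library with the highest COL1A1, edgeR called 2 members lower, COL5A1 and COL6A3. The median over members was 0.07 in S3-78 and -0.92 in Direct-78, beside 0.07 and -0.33 over all genes. Without COL8A1, which was at 0 in Direct-78, and without the other genes at 0 there, the Direct-78 medians were -0.49 over 8 members and -0.24 over 2084 genes. In the other groups it was 0.21 in S1-32, 0.11 in S1-57 and -0.73 in S3-57, beside 0.05, 0.07 and 0.01.

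Scaling moved the median of all genes by more than 0.1 on the log2 scale in all treated comparisons except S1-78 and S3-57. RLE and upper-quartile factors shifted it relative to TMM by -0.08 and -0.13 in S1-10, -0.13 and -0.29 in S1-32, 0.11 and 0.12 in S1-57 and -0.11 and -0.21 in S2-32. The shifts were 0.21 and 0.18 in S2-78, 0.20 and 0.27 in S3-78 and 0.40 and 0.45 in Direct-78. Relative to the median of all genes, the members' median was -0.96 in S1-10, 0.70 in S2-32, -0.59 in Direct-78, 1.08 in S2-78 and 1.16 in S1-78. The number of members with a log2 fold change above 0 was 8 with TMM, 5 with RLE and 4 with upper-quartile factors in S1-32, and 3, 4 and 4 in Direct-78. It was 5, 5 and 7 in S1-57 and 8, 9 and 9 in S2-78.

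Called genes also divided differently by scaling. The percentage of called genes that were higher was 40.8, 37.7 and 27.2 in S1-32 with TMM, RLE and upper-quartile factors, 22.9, 39.3 and 46.4 in S1-57, and 50.0, 72.1 and 72.5 in S2-78. It was 44.7, 57.3 and 54.1 in S3-57, 43.9, 55.7 and 61.7 in S3-78, and 23.4, 46.3 and 49.7 in Direct-78. The member calls in S1-78, S2-32 and S1-10 were the same genes under all 3 scalings.

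**Figure D3:**
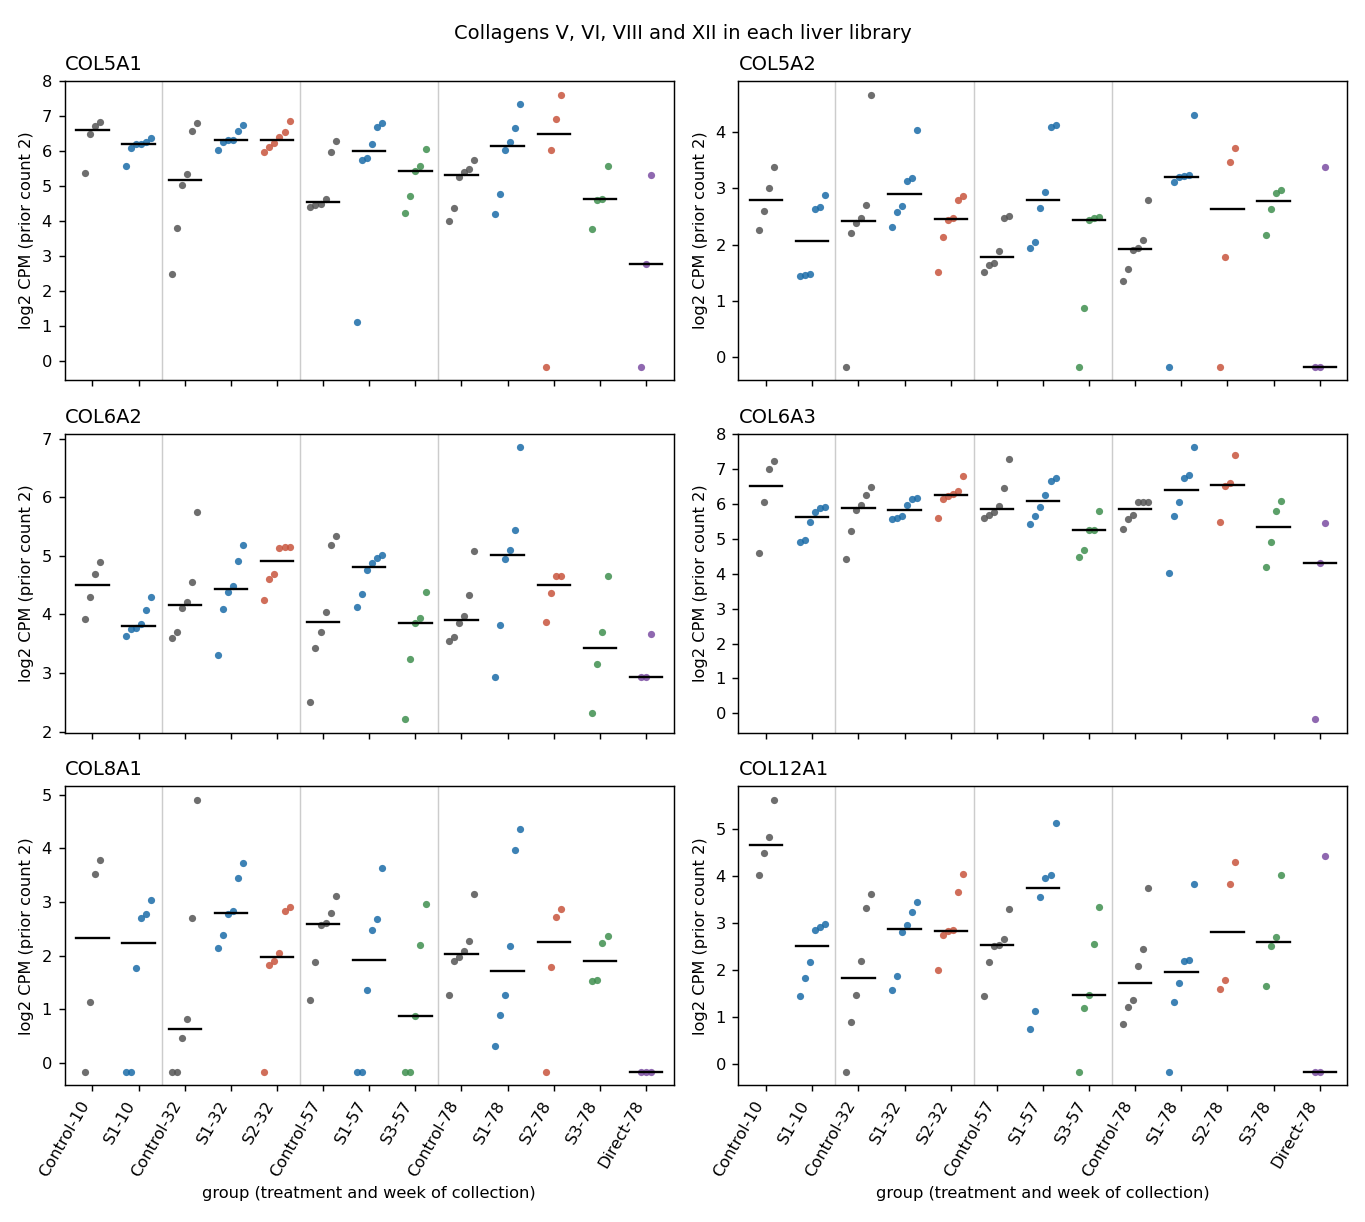
Level of COL5A1, COL5A2, COL6A2, COL6A3, COL8A1 and COL12A1 in each of the 68 libraries as log2 CPM with a prior count of 2, by group, with black bars at group medians and colours as in the plot of the fibrillar chains. COL8A1 is at 0 CPM in all 3 Direct-78 libraries, and COL12A1 in Control-10, from 15.5 to 48.8 CPM, lies above all 6 S1-10 libraries.

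The collagen V chains COL5A1 (chr2:27886425-28039514, plus strand) and COL5A2 (chr1:45374321-45503282, minus strand), which set fibril width, had no call in any treated group against its controls. COL5A1 at 78 weeks ran from 15.0 to 52.9 CPM (median 39.2) in controls and from 17.5 to 161 CPM (median 70.4) in S1-78. The S2-78 libraries held 196, 119.8, 65.2 and 0 CPM, and the Direct-78 libraries 5.93, 39.1 and 0 CPM. S2-78 ran from mouse 47, at 0, to mouse 43, above every other of these libraries, and all 3 groups overlapped with the controls. COL5A1 in S2-78 had an unadjusted p under 0.05 and did not pass the test (log2 fold change 1.44, SE 0.69, edgeR adjusted p = 0.294). COL5A2 had group medians from 0 CPM in Direct-78 to 8.31 CPM in S1-78, with log2 fold changes from -0.74 in S1-10 to 1.42 in S1-78. COL3A1 and COL5A2 are neighbours on chromosome 1, with 24614 bases between them, on opposite strands.

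The collagen VI chains COL6A2 (chr10:76595762-76623630, minus strand) and COL6A3 (chr1:90765923-90843971, minus strand) belong to the microfilaments around cells, and neither was called in a treated group against its controls. COL6A2 in S1-78 ran from 6.71 to 115 CPM (median 31.6) against 10.9 to 32.9 CPM (median 14.2) in Control-78. Mouse 36 was the highest of the S1-78 libraries and mouse 32 the lowest, below all controls. COL6A2 did not pass the test (log2 fold change 1.23, SE 0.46, edgeR adjusted p = 0.161), and without mouse 36 its log2 fold change was 0.56. COL6A3 in Direct-78 was 18.8, 43.2 and 0 CPM, against 37.5 to 65.8 CPM (median 57.7) in Control-78. Mice 64 and 66 lay below the controls and mouse 65 within them. COL6A3 did not pass the test in Direct-78 (log2 fold change -1.42, SE 0.60, edgeR adjusted p = 0.0729), and without mouse 65 it was called lower (log2 fold change -2.27), with adjusted p from 0.0163 to 0.915 over all alternatives in edgeR and DESeq2.

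COL8A1 (chr16:57624258-57754737, minus strand) encodes a chain of a network-forming collagen of basement membranes and was near the floor of the assay. It was at 0 counts in all 3 Direct-78 libraries and ran from 1.51 to 8.0 CPM (median 3.19) in Control-78. A floor of 3 counts amounts to 2.96, 4.05 and 4.05 CPM in these 3 libraries, and the medians of Control-78 and S1-78 lay near or under it, so COL8A1 is listed at 0 in Direct-78 without a fold. It was also at 0 in 2 libraries each of S1-10, S1-57, S3-57 and Control-32, and in 1 each of S2-32, S2-78 and Control-10. No treated group passed the test for COL8A1 against its controls.

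COL12A1 (chr9:79598991-79718831, minus strand), the collagen of fibril surfaces, was high in the youngest controls, at 21.8, 27.6, 48.8 and 15.5 CPM. In S1-10 it ran from 1.84 to 7.03 CPM (median 4.98). All 6 S1-10 libraries lay below all 4 controls, although the difference did not pass the test (log2 fold change -2.59, SE 0.89, edgeR adjusted p = 0.0732). It was called with DESeq2, in the fit of the 2 compared groups and without libraries high in pancreas markers, with adjusted p from 0.0121 to 0.263 over all alternatives in edgeR and DESeq2. In the other treated groups COL12A1 overlapped with controls, with log2 fold changes from -0.47 in S3-57 to 1.34 in S1-57.

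Treated groups of the same age were compared to ask whether exposure that went on or stopped late differed from exposure that stopped early. No control library is in either compared group, although the controls share the model that gave the spread and scaling. Fits of only the 2 compared groups hold no controls and gave other member counts, listed with the alternatives at the end. At 32 weeks COL1A1 was higher in S2-32 than in S1-32, with the values given above for each and no overlap (log2 fold change 2.03, SE 0.57, edgeR adjusted p = 0.0338). It was the 1 member called higher, where 2.13% of all genes were called higher, and the median log2 difference was 0.41 over members and 0.01 over all genes. The count was 0 when any 1 of mice 19, 20, 21, 23 and 24 of S1-32 and mouse 41 of S2-32 was left out, with log2 differences from 1.77 to 2.22. Of the other fibrillar chains, COL1A2 had an unadjusted p under 0.05 and did not pass the test (log2 fold change 1.3, SE 0.60, edgeR adjusted p = 0.237).

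At 57 weeks, S3-57 against S1-57 had 0% of all genes called in edgeR and 0 members. At this age 4 of 9 members and 111 of 2205 genes had an unadjusted p under 0.05, and DESeq2 called 0 of 9. All 9 members had a negative log2 difference with each of the 3 scalings, with a median of -1.03 over members and -0.04 over all genes. The 5 S3-57 libraries of COL6A3 held 37.4, 24.8, 21.3, 36.9 and 54.5 CPM, against 41.9 to 105 CPM (median 67.1) in S1-57. The groups overlapped, and COL6A3 did not pass the test (log2 fold change -1.03, SE 0.48, edgeR adjusted p = 0.880).

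At 78 weeks, COL3A1 in S3-78 was 9.70, 5.99, 12.7 and 23.6 CPM, under all S1-78 libraries except mouse 32. COL3A1 (log2 fold change -2.64, SE 0.69, edgeR adjusted p = 0.0315) and COL1A1 (log2 fold change -2.28, SE 0.67, edgeR adjusted p = 0.0476) were lower in S3-78 than in S1-78. These were the 2 members called lower, where 2.68% of all genes were called lower, and the median log2 difference was -1.46 over members and -0.01 over all genes. The count was 0 when any 1 of mice 33 to 36 of S1-78 and mice 55, 56 and 59 of S3-78 was left out, and 4 without mouse 31 or 32 of S1-78, when COL1A2 and COL6A2 were added. Log2 differences over the 10 fits ran from -3.09 to -2.14 for COL3A1 and from -2.76 to -1.67 for COL1A1. Without mouse 60 of S3-78, COL1A1 was -2.65 and lost its call. With all 78 libraries, without those high in pancreas markers, or with each library's log2 total in the model, COL3A1 lost its call.

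Direct-78 against S1-78 had 7 members called lower, where 19.1% of all genes were called lower. Medians were -2.32 over members and -0.36 over all genes, and -2.27 and -0.25 without the genes at 0 in Direct-78. The 3 Direct-78 libraries of COL3A1 held 10.9, 0 and 8.11 CPM, and S1-78 ran from 9.4 to 199 CPM (median 76.4), with mouse 64 of Direct-78 above mouse 32 of S1-78 and the rest apart. COL3A1 was lower in Direct-78 (log2 fold change -3.63, SE 0.85, edgeR adjusted p = 0.00287). COL1A2 did not overlap between the groups (log2 fold change -2.97, SE 0.87, edgeR adjusted p = 0.0118). COL1A1, COL5A1, COL6A2 and COL6A3 had log2 differences of -2.76, -2.32, -2.23 and -2.13 with edgeR adjusted p = 0.0102, 0.0474, 0.0106 and 0.0111. COL8A1 was called too (edgeR adjusted p = 0.0403), with no fold because Direct-78 was at 0. Its S1-78 median of 2.58 CPM lay under the floor of 3 counts in the Direct-78 libraries, 2.96 to 4.05 CPM.

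The count of 7 was 4 without mouse 36 of S1-78, 2 without mouse 64 of Direct-78 (COL3A1 and COL6A2) and 3 without mouse 66 of Direct-78 (COL1A2, COL3A1 and COL5A2). It was 2 (COL3A1 and COL6A2) without libraries high in pancreas markers, 0 in the fit of the 2 compared groups and 0 when each library's log2 total entered the model. Total counts of the 3 Direct-78 libraries all lay below those of the 6 S1-78 libraries (1665464 to 3301147), so depth and treatment cannot be told apart in these libraries. COL3A1 was called in each fit that left out 1 library, with log2 differences from -4.30 to -2.86. COL1A1 (-3.44 to -2.14) and COL6A3 (-2.98 to -1.51) lost their calls without mouse 64 or 66, COL1A2 (-4.19 to -2.19) without mouse 64 or 65, and COL6A2 (-2.56 to -1.56) without mouse 36 or 66. COL5A1 (-4.29 to -1.70) lost its call without any 1 of mice 33 to 36, 64 and 66, and COL8A1 without mouse 36, 64, 65 or 66. Both lost their calls with RLE or upper-quartile factors.

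S3-78 against S2-78 had 1.63% of all genes called in edgeR in either direction and 0 members. Between these groups 5 of 9 members and 378 of 2205 genes had an unadjusted p under 0.05, and DESeq2 called 1 of 9. All 9 members had a negative log2 difference with TMM and RLE factors and 8 with upper-quartile factors, with a median of -1.24 over members and 0.05 over all genes. COL1A1 in S2-78 was spread from mouse 47, inside the S3-78 range, to mouse 43. Without mouse 47, edgeR called 2 members lower, COL1A1 and COL5A1, with log2 differences of -2.28 and -2.25. The DESeq2 call was COL3A1.

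RLE and upper-quartile factors moved the median of all genes relative to TMM by 0.11 and 0.17 in S3-78 against S1-78 and by 0.31 and 0.37 in Direct-78 against S1-78. The percentage of called genes that were higher was 28, 32.9 and 41 in the first with TMM, RLE and upper-quartile factors, 21.9, 41.7 and 43.8 in the second, and 25, 19.6 and 36.7 in S3-78 against S2-78. Relative to the median of all genes, the members' median was -1.45, -1.96 and -1.29 in these comparisons. COL1A1 in S3-78 against S1-78 was not called with either of the other scalings.

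**Figure D4:**
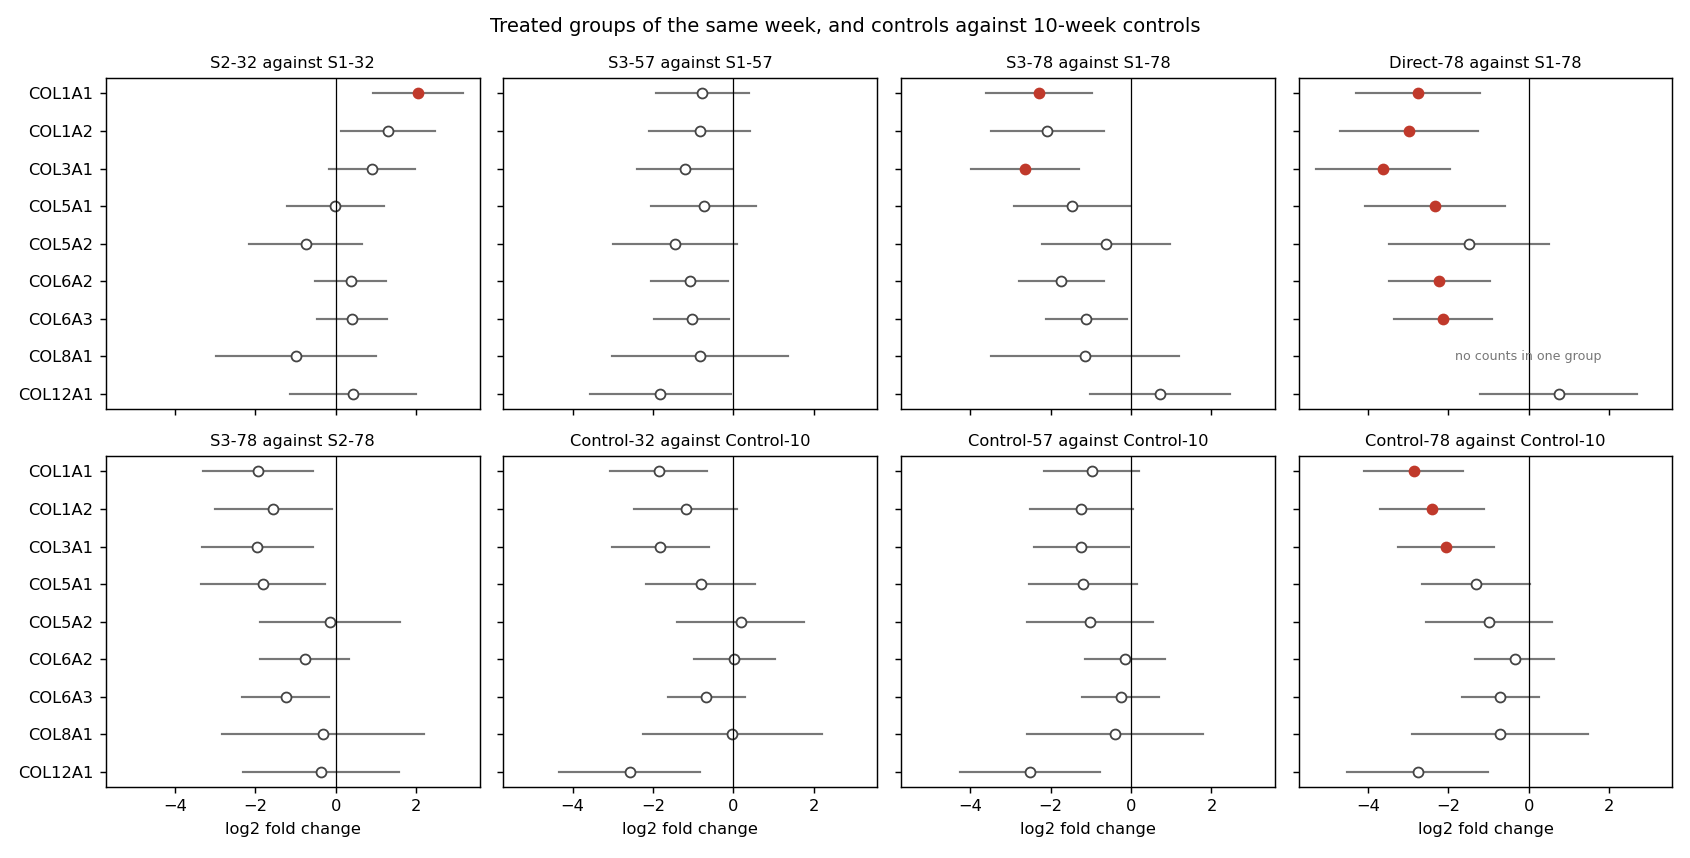
Log2 differences of the 9 members between treated groups of the same age and between older controls and Control-10, with bars for 95% intervals from the standard error, filled red where called and open where not. COL1A1, COL1A2 and COL3A1 are filled below 0 in Control-78 against Control-10, and COL8A1 has no point in Direct-78 against S1-78.

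Levels without DCA were compared between control ages, and these comparisons share Control-10. COL1A1 in Control-78 lay below all 4 Control-10 libraries, as did COL1A2 and COL3A1, whose ranges were 23.5 to 89.2 CPM and 21.8 to 69.8 CPM in Control-10. All 3 fell: COL1A1 (log2 fold change -2.86, SE 0.63, edgeR adjusted p = 0.00407), COL1A2 (log2 fold change -2.41, SE 0.66, edgeR adjusted p = 0.0263) and COL3A1 (log2 fold change -2.05, SE 0.61, edgeR adjusted p = 0.0377). They were the 3 members called lower, where 1.59% of all genes were called lower, with medians of -1.3 over members and -0.06 over all genes. The count was 1, COL1A1, without mouse 69 or 72 of Control-10 or mouse 87 of Control-78. COL3A1 was called in none of these 3 fits, and not without mouse 71 of Control-10 or mouse 86, 88, 89 or 90 of Control-78, with log2 differences from -2.31 to -1.87. COL1A2 ran from -2.65 to -2.05 over the same 10 fits. With all 78 libraries COL1A1 and COL3A1 lost their calls, and COL1A2 kept its call.

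COL12A1 in each older control group lay below all 4 Control-10 libraries, at 0 to 11.5 CPM (median 2.79) in Control-32, 1.85 to 8.97 CPM (median 4.88) in Control-57 and 0.905 to 12.5 CPM (median 2.51) in Control-78. None of these differences passed the test, with log2 differences of -2.58, -2.51 and -2.76 and edgeR adjusted p = 0.11, 0.102 and 0.0616. Without mouse 90, the highest Control-78 library, the last was called, as it was with DESeq2 (log2 difference without mouse 90 -3.52 in edgeR), with adjusted p from 0.0168 to 0.182 over all alternatives in edgeR and DESeq2.

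Control-32 against Control-10 had 1.59% of all genes called in edgeR and 0 members. At 32 weeks 3 of 9 members and 395 of 2205 genes had an unadjusted p under 0.05, and DESeq2 called 1 of 9. Mouse 74 held the most COL1A1 and COL3A1 of the Control-32 libraries, and without it 3 members were called lower: COL1A1 (-2.29), COL3A1 (-2.27) and COL12A1 (-2.91) as log2 differences. Control-57 against Control-10 had 3.45% called in edgeR and 0 members. At 57 weeks 2 of 9 members and 359 of 2205 genes had an unadjusted p under 0.05, and DESeq2 called 1 of 9. Medians over members were -0.81 and -1.02, beside -0.06 and -0.04 over all genes. Scaling moved the median of all genes by 0.06 and 0.13, -0.10 and -0.11 and -0.14 and -0.18 with RLE and upper-quartile factors at 32, 57 and 78 weeks. The percentage of called genes that were higher was 69.7, 53.9 and 52.9 at 57 weeks and 59.8, 42.7 and 36.6 at 78 weeks with TMM, RLE and upper-quartile factors. With those factors, 2, 3 and 3 members at 32 weeks, and 0 members at 57 and 78 weeks, had a log2 difference above 0.

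Whether a treatment effect differed between ages was tested as a difference of log2 fold changes, each against its own controls. The effect in S1-78 exceeded that in S1-10 for COL1A1 (log2 difference 5.88, SE 0.86, edgeR adjusted p = 1.07e-05), COL1A2 (log2 difference 4.41, SE 0.90, edgeR adjusted p = 0.00170) and COL3A1 (log2 difference 4.21, SE 0.84, edgeR adjusted p = 0.00119). These 3 were the members called higher, where 3.08% of all genes were called higher, and the median was 2.16 over members and 0.10 over all genes. The difference holds both the fall of COL1A1 in S1-10 and its rise in S1-78, and both control groups enter it. The same 3 genes were called in each of the 22 fits that left out a library. DESeq2 called 5, with COL6A2 and COL6A3 added.

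The effect in S2-78 minus that in S2-32 had 0.499% of all genes called in edgeR in either direction and 0 members. In this test 0 of 9 members and 405 of 2205 genes had an unadjusted p under 0.05, and DESeq2 called 0 of 9. For COL1A1 the difference was 0.78 with a 95% interval of -0.85 to 2.40, and for COL3A1 0.07 with -1.57 to 1.70. The rise of COL3A1 in S2-32 and its missing call in S2-78 are therefore not shown to differ. Scaling moved the median of all genes by 0.16 and 0.21 in the first of these tests and 0.31 and 0.39 in the second with RLE and upper-quartile factors, and the percentage of called genes that were higher was 63.6, 88.2 and 87.8 in the second. The members' median relative to all genes was 2.06 and 0.68.

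Of the other collagens, 4 were on the panel and 2 tested. COL4A2, a chain of the basement membrane collagen IV, held 34.2 to 81.7 CPM in Control-78 and 36.3 to 233 CPM in S1-78. In S2-32 it held 116 to 272 CPM, against 32.8 to 123 CPM in Control-32. The ranges overlapped in both comparisons, and COL4A2 rose in S1-78 (log2 fold change 1.52, edgeR adjusted p = 0.0180) and in S2-32 (log2 fold change 1.5, edgeR adjusted p = 0.00927). It was 1 of 2 called higher in each, and edgeR called 0 of 2 in the other 7 treated groups. The S1-78 call was lost without mouse 36 of S1-78 or mouse 86 of Control-78 (1.41 to 1.73 over the fits), and the S2-32 call in 0 of 12 fits.

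COL4A2 was also called in 4 other comparisons. It was lower in Direct-78 than in S1-78 (log2 fold change -2.42, edgeR adjusted p = 0.00180), with the call lost in 0 of 9 fits, and lower in S3-78 than in S1-78 (log2 fold change -1.45, edgeR adjusted p = 0.0485). That last call was lost without mouse 33, 34, 35 or 36 of S1-78 or mouse 55, 56, 59 or 60 of S3-78 (-1.65 to -1.17), and with RLE or upper-quartile factors. In Control-78 against Control-10 COL4A2 fell (log2 fold change -1.44, edgeR adjusted p = 0.0315), and the call was lost without mouse 68 or 71 of Control-10 or mouse 86, 88 or 90 of Control-78 (-1.59 to -1.27). Its effect in S1-78 exceeded that in S1-10 (log2 difference 2.17, edgeR adjusted p = 0.0147), a call lost without mouse 68 of Control-10 (1.99 to 2.43).

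Collagen is folded, trimmed and crosslinked by a set of enzymes and chaperones, of which 10 were tested. In S1-78 and S2-78, where COL1A1 and COL1A2 rose, 0 of 10 were called in either direction by edgeR. Of all 2205 genes, 40 were called in S1-78 and 36 in S2-78. With so few genes called, 0 of 10 does not set these enzymes and chaperones apart from other genes. The same limit holds for the lists below with 0 called in S1-78 and S2-78. P4HB, a subunit of prolyl 4-hydroxylase, rose in S1-32 (log2 fold change 1.49, edgeR adjusted p = 0.00185) and in S2-32 (log2 fold change 1.18, edgeR adjusted p = 0.0203), where the call was lost without mouse 75 or 78 of Control-32 (1.05 to 1.40). PPIB, a cyclophilin of the endoplasmic reticulum, fell in S3-57 (log2 fold change -1.25, edgeR adjusted p = 0.00743), the 1 of 10 called there. In Direct-78, 2 of 10 were called lower and 1 higher. PPIB was lower (log2 fold change -1.44, edgeR adjusted p = 0.00540), with the call lost without mouse 66 of Direct-78 (-1.53 to -1.24) and with upper-quartile factors. P4HB was lower (log2 fold change -1.28, edgeR adjusted p = 0.0307), with the call lost without mouse 64, 65 or 66 of Direct-78 or mouse 85 or 90 of Control-78 (-1.40 to -0.84), with RLE or upper-quartile factors and with DESeq2.

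LEPREL2, a prolyl 3-hydroxylase, moved both ways. It was the 1 called higher in Direct-78 (log2 fold change 1.12, edgeR adjusted p = 0.0463), lost without mouse 64 or 66 of Direct-78 or mouse 85, 87, 88, 89 or 90 of Control-78 (0.85 to 1.43), and the 1 called lower in S1-10 (log2 fold change -1.34, edgeR adjusted p = 0.0331), lost without mouse 13, 14, 15, 16 or 18 of S1-10 or mouse 68 of Control-10 (-1.55 to -1.05). In S3-78, 2 of 10 were called lower. P4HA2, a catalytic subunit of prolyl 4-hydroxylase, was one (log2 fold change -2.0, edgeR adjusted p = 0.00916), lost without mouse 55 of S3-78 (-2.38 to -1.66). PCOLCE, an enhancer of procollagen trimming, was the other (log2 fold change -1.12, edgeR adjusted p = 0.0284), lost without mouse 55 or 59 of S3-78 or mouse 87 or 89 of Control-78 (-1.21 to -0.92) and with RLE or upper-quartile factors.

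PCOLCE was called lower in 3 comparisons between treated groups. In S3-78 against S1-78 (log2 fold change -1.48, edgeR adjusted p = 0.0271) the call was lost without mouse 33, 34, 35 or 36 of S1-78 or mouse 55 of S3-78 (-1.63 to -1.17). In Direct-78 against S1-78 (log2 fold change -1.21, edgeR adjusted p = 0.0260) it was lost without mouse 36 of S1-78 or mouse 64 or 65 of Direct-78 (-1.93 to -0.83), with RLE or upper-quartile factors and with DESeq2. In S3-78 against S2-78 (log2 fold change -1.40, edgeR adjusted p = 0.0482) it was lost without mouse 43 or 44 of S2-78 or mouse 55, 56, 59 or 60 of S3-78 (-1.54 to -1.21). PPIB was lower in Direct-78 than in S1-78 (log2 fold change -1.07, edgeR adjusted p = 0.0273), lost without mouse 64, 65 or 66 of Direct-78 (-1.13 to -0.86), with RLE or upper-quartile factors and with DESeq2. P4HB was lower there too (log2 fold change -1.69, edgeR adjusted p = 0.00750). Its call was kept in each fit that left out a library, with both other scalings and with DESeq2. P4HA2 was lower in S3-78 than in S1-78 (log2 fold change -1.78, edgeR adjusted p = 0.0476). That call was lost without mouse 33, 34, 35 or 36 of S1-78 or mouse 55, 56 or 59 of S3-78, and with RLE or upper-quartile factors.

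Of 11 other matrix proteins tested, 0 were called in S1-78 and in S2-78 by edgeR. FN1, fibronectin, rose in S1-32 (log2 fold change 0.97, edgeR adjusted p = 0.00852) and fell in Direct-78 (log2 fold change -1.47, edgeR adjusted p = 0.00349), where 3 of 11 were lower, with both calls kept in each fit that left out a library. FN1 was lower in S2-32 than in S1-32 (log2 fold change -1.14, edgeR adjusted p = 0.0142), where COL1A1 was higher, lost without mouse 20 of S1-32. ECM1 fell in S1-32 (log2 fold change -1.62, edgeR adjusted p = 0.00259), lost in 0 of 12 fits. LAMA3 was called higher in S1-10, lost in 9 of 10 fits. It was called lower in S3-78, lost without mouse 55 or 59, and in Direct-78, where it was at 0. VTN, vitronectin, a plasma protein made by hepatocytes, fell in S2-32 (log2 fold change -1.22, edgeR adjusted p = 0.0230), lost without mouse 42 of S2-32 or mouse 76 or 78 of Control-32 (-1.46 to -1.13). Among 11 genes of matrix degradation, MMP14, a membrane metalloproteinase, rose in S3-78 (log2 fold change 1.47, edgeR adjusted p = 0.00434), kept in each such fit. TIMP1, an inhibitor of metalloproteinases, held 0 to 4.84 CPM in S1-10 with a median of 1.61 CPM, at the floor of 3 counts (1.38 to 2.0 CPM there), and 6.03 to 31.3 CPM in Control-10. It was called lower (edgeR adjusted p = 0.0460), with a fitted log2 fold change of -3.12 that gives no exact fold, and the call was lost without mouse 13, 14, 16, 17 or 18 of S1-10 or mouse 68 or 71 of Control-10 (-3.71 to -2.61). None of the 11 was called in S1-78, S2-32 or S2-78 by edgeR.

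Of 13 genes of TGF-beta and fibrogenic signalling, edgeR called 0 in S1-10 and at 78 weeks in S1 and S2. In S2-32 TGFBR2, a TGF-beta receptor, fell (log2 fold change -1.39, edgeR adjusted p = 0.0465), with 1 of 13 higher and 1 lower, a call lost without mouse 37, 38, 39, 40 or 42 of S2-32 or mouse 73, 75, 76 or 78 of Control-32 (-1.51 to -1.14). In S3-78 TGFBR2 rose (log2 fold change 1.96, edgeR adjusted p = 0.00716), lost without mouse 59 of S3-78 (1.52 to 2.28). Its partner receptor TGFBR1 fell there (log2 fold change -1.01, edgeR adjusted p = 0.00913), a call lost with upper-quartile factors, with 2 of 13 higher and 1 lower. Direct-78 had 1 higher and 3 lower, among them TGFBR1 (log2 fold change -2.11, edgeR adjusted p = 1.03e-05), kept in each fit that left out a library.

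Of 4 collagen receptors, edgeR called 0 in S1-78, S2-32 and S2-78. DDR1, a collagen-binding tyrosine kinase, held 1.27 to 9.08 CPM in S1-10 and 5.74 to 150.4 CPM in Control-10, with a control median of 16.4 CPM. The groups overlapped, and DDR1 fell (log2 fold change -3.57, edgeR adjusted p = 0.0170). Without mouse 68 of Control-10 the log2 fold change was -1.70 and the call was lost. In S1-32 it fell as well (log2 fold change -2.48, edgeR adjusted p = 0.0221), lost without mouse 75 of Control-32 (-2.77 to -2.24). ITGB1 rose in S1-32 (log2 fold change 1.88, edgeR adjusted p = 0.0159), lost in 0 of 12 fits. It fell in Direct-78 (log2 fold change -3.08, edgeR adjusted p = 0.00846), lost without mouse 64 or 66 of Direct-78. CD44 rose in S3-78 (log2 fold change 1.81, edgeR adjusted p = 0.0284), lost without mouse 55, 56 or 59 of S3-78 or mouse 86 or 89 of Control-78.

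**Figure D5:**
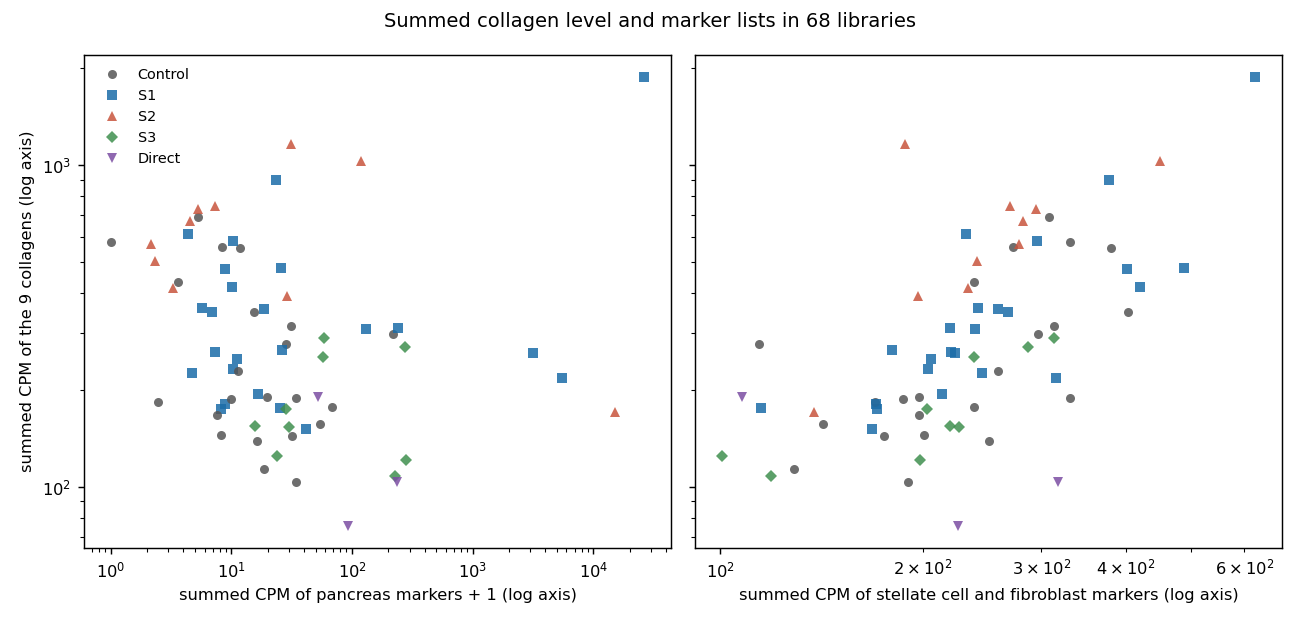
Summed CPM of the 9 members in each of the 68 libraries against the summed CPM of pancreas markers (plus 1, left) and of stellate cell and fibroblast markers (right) on log axes, with groups coloured as in the plots by library. Mouse 36 of S1-78 is highest on all 3 axes, at 1880.2 CPM for the members.

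Markers of the cells that make collagen were read beside the members. Of 26 stellate cell and fibroblast markers, 9 were on the panel and all 9 were tested, and VIM was the most abundant, with none at 0 in all kept libraries. Their summed level was 168 to 623 CPM in S1-78, 138 to 269 in S2-78, 233 to 450.2 in S2-32, 129 to 258 in Control-78 and 142 to 297 in Control-32. Treated and control ranges overlapped in each of these, and 0 of 9 were called in S1-78, S2-78, S2-32 and S1-10 by edgeR. Among treated groups against their controls a marker was called in S3-57 alone, VIM, which fell (log2 fold change -1.41, edgeR adjusted p = 0.0216), a call lost without mouse 50 or 53 of S3-57 (-1.66 to -1.17), and between treated groups LUM was lower in Direct-78 than in S1-78 (log2 fold change -1.71, edgeR adjusted p = 0.0251), lost without mouse 36 of S1-78 or mouse 65 or 66 of Direct-78 (-2.86 to -1.05) and with RLE or upper-quartile factors. Their part in the result was not tested.

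Markers of other tissues stood out in a few libraries. Of 24 pancreas markers, 15 were on the panel and 6 tested, with CEL the most abundant, and 10 of 68 libraries exceeded the median of 18.2 CPM by more than 10 times. Mouse 36 of S1-78 had a summed pancreas marker level of 26552 CPM, a muscle, bone, skin, adipose and brain marker level of 6262 CPM and a summed member level of 1880.2 CPM. Mouse 47 of S2-78 had 15220.4 CPM of pancreas markers and the lowest summed member level of its group, 171 CPM. In S1-78, 4 of 6 tested pancreas markers and CKM, a muscle creatine kinase, were called higher, and in S2-78, 3 of 6 pancreas markers were. Without mouse 36 the 5 calls of S1-78 were lost, and without mouse 47 the 3 of S2-78. Without the 10 libraries COL1A1, COL1A2 and COL3A1 were called in S1-78, with log2 fold changes of 3.35, 2.67 and 2.36. The same alternative gave 2 members instead of 7 in Direct-78 against S1-78 and 0 instead of 2 in S3-78 against S1-78. In Direct-78 against S1-78 the markers CELA2A, CTRB1, ACTA1 and CKM were called lower too, of which ACTA1 alone kept its call in each fit that left out a library and the other 3 lost theirs without mouse 36 and with DESeq2. For mouse 36 alone left out, the log2 fold changes in S1-78 were 3.22, 2.49 and 2.21.

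The tissue label was read against hepatocyte markers, of which 6 of 12 were on the panel and tested. Their summed level ran from 14598 to 85411 CPM over the 68 libraries, with TTR the most abundant. In Direct-78 it was 20796 to 34374 CPM, against 43451 to 74459 in S1-78 and 40037 to 64708 in Control-78, overlapping neither, while the summed members were 75.7 to 190.3 CPM. Their part in the lower members of Direct-78 against S1-78 was not tested. The other lists had summed medians of 1516 CPM for cholangiocytes, 952 for macrophages, 179 for endothelium, 45.6 for lymphocytes and leukocytes, 263 for erythroid cells and 11 for mesothelium, where KRT19 alone was on the panel. Of these lists, with hepatocytes, edgeR called 0 markers in S1-78 and S2-78. In S2-32 CD68, a macrophage marker, was called higher (log2 fold change 2.06, edgeR adjusted p = 0.0301), lost without mouse 40 or 42 of S2-32 or mouse 73, 76 or 78 of Control-32 (1.72 to 2.44). KRT8, a cholangiocyte marker, was called lower there (log2 fold change -1.90, edgeR adjusted p = 0.0145), lost without mouse 76 of Control-32 (-2.13 to -1.03), and in S1-10 CD4 was called higher, from 0 in all controls, though not without mouse 68 of Control-10. In Direct-78 against S1-78, FGB, HNF4A, SPP1, CD68, CD4, ENG, ALAS2 and HBB-BS were called lower and CD79A higher. Of these 9 calls, 2 (FGB, ALAS2) were kept in each fit that left out a library.

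Summed markers were also set beside the other comparisons with a member called. Beside the lower COL1A1 of S1-10, hepatocyte markers were 62519 to 78321 CPM against 14598 to 62200.4 in Control-10, and erythroid markers 282 to 401 against 43.1 to 202, neither overlapping. FABP4, an adipose marker, was called lower in S1-10 (log2 fold change -2.80, edgeR adjusted p = 0.00148), at 26.6 to 36.7 CPM against 85.7 to 632 CPM, and without mouse 68 of Control-10 its log2 fold change was -1.51 and the call was lost. Beside the lower COL1A1, COL1A2 and COL3A1 of Control-78 against Control-10, endothelial markers were 133 to 157 against 212 to 333 CPM and erythroid markers 314 to 868 against 43.1 to 202, without overlap, with FABP4 called lower, though not without mouse 68 of Control-10 (-0.75), and CD4 and ALAS2 higher. There the CD4 call was lost without mouse 72 of Control-10, and that of ALAS2 without mouse 68, 69, 71 or 72 of Control-10 or mouse 86, 87 or 88 of Control-78 (1.62 to 2.17). Beside the higher COL1A1 of S2-32 against S1-32, macrophage markers were 592 to 1069.7 against 1294 to 1684 CPM, endothelial markers 173 to 278 against 329 to 432 and lymphocyte and leukocyte markers 18.1 to 33.1 against 37.3 to 88.5, all without overlap. Beside the lower COL1A1 and COL3A1 of S3-78 against S1-78, CKM and ALAS2 were called lower, CKM not without mouse 33, 34, 35 or 36 of S1-78 or mouse 55, 56, 59 or 60 of S3-78 and ALAS2 not without mouse 33, 34, 35 or 36 of S1-78 or mouse 55, 56 or 59 of S3-78, and each summed list overlapped. In S1-78, S2-78 and S2-32 against controls each summed list overlapped. In the effect in S1-78 minus that in S1-10, CKM (log2 difference 9.80) and FABP4 (2.96) were called higher and CD4 lower. There CKM lost its call without mouse 36 of S1-78 or mouse 68 of Control-10 and with DESeq2. FABP4 lost its call without mouse 68 of Control-10, and CD4 in 12 of 22 fits. Their part in the member calls was not tested.

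The members varied together within groups to unequal extents. After the group mean was taken off each gene, Spearman correlations over the 36 pairs ran from -0.11 to 0.66 with a median of 0.28, over 68 libraries that share the assay and differ in depth. COL1A2 and COL3A1 had the highest, and COL8A1 and COL12A1 the lowest. COL8A1, near the floor, had a median of 0.0491 with the other 8 members, and COL1A1 one of 0.482. The 10 tested genes most like the mean of the members were DPT (0.777), LUM (0.680), CCND2 (0.666), LOXL1 (0.658), TM9SF2 (0.610), VAV3 (0.609), TAGLN (0.597), MTMR2 (0.594), MKI67 (0.576) and 4833423F13RIK (0.574), as Spearman correlations over the same 68 libraries. With a prior count of 0.5, 9 of the 10 were shared, and 4 of the 10 without taking off group means. In Direct-78 against S1-78, 3 of the 10 were called lower, DPT, LUM and TM9SF2, and TM9SF2 was also lower in Direct-78 against Control-78. The other 17 comparisons called 0 of the 10 in edgeR.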

How the data were processed

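Libraries of a mouse TempO-Seq panel were analysed, 1 per liver. The authors deposited raw counts per gene for 78 libraries, which the vendor had aligned (Bowtie, Partek 10.0.22.0524 and mm10 are listed). The authors also deposited a normalized signal, made by median ratio in Partek after 1 was added to each count, for 68 libraries, and a filtered table of 2205 genes with the same values. The 10 libraries left out by the authors had totals of up to 658155, and 9 of them fell under the limit of 0.7 that the authors set for squared rank correlation.

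Raw counts of the 68 libraries and 2205 genes were fitted in 1 quasi-likelihood model with 13 groups (edgeR 4.0.16, limma 3.58.1, R 4.3.3, TMM factors). Treated groups were compared with controls of their age and with each other, older controls with the youngest, and effects between ages. A gene was called at a Benjamini-Hochberg adjusted p of 0.05 or less within a comparison and a fold beyond 1.5; differences between effects needed the adjusted p alone. Log2 levels had a prior count of 2, and intervals of 95% came from the standard error. A level under 3 counts per library lay at the floor. Figures and tables used matplotlib 3.10.9, pandas 2.3.3 and scipy 1.17.1.

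Genes named were the 9 members and the 10 genes most correlated with the members' mean within groups. From each other list, genes were taken from up to 4 called in a treated group against its controls, by smallest p. Not all of these are described above: PLG, TIMP2 and SMAD3 are among those left out. Those named outside this rule, after their values were seen, were ACTA1, CD79A, CELA2A, HBB-BS, PCOLCE and TTR. The members and lists were chosen with earlier results of these data known. With those results known, the comparisons, thresholds and alternatives were set before the data were examined here, except 1 alternative added later. The alternatives set beforehand were RLE and upper-quartile factors, 2 other gene filters, all 78 libraries, DESeq2 1.42.0, only the 2 groups compared, the adjusted p alone, the library's log2 total as a covariate, each library left out in turn, and no libraries with pancreas markers over 10 times the median. Within groups, 151 pairs of libraries were checked for copies (smallest chi-square per degree of freedom 26.1). The calling was tested on simulated data, with the same spread for a gene in all groups and the same level except where a change was added. That test does not cover unequal spread between groups or single unusual libraries. Library totals bound the precision of the low members, since counting error alone sets the floor in the shallow libraries.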

Additional observations from a re-analysis of the deposited data

Results flagged for a closer look

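In 7 of 108 sets of libraries (each member in each group of 4 or more) 1 library stood far from the others by Dixon's test on log2 CPM, and chance alone gives about 1 in 20. COL1A1 in mouse 13 of S1-10 was low, at 4.34. COL5A1 was low in mouse 15 of S1-10, at 5.59, and in mouse 28 of S1-57, at 1.12. Mouse 28 was low for COL1A2 too, at -0.17, which is the level of 0 counts. The other 3 were also at 0 counts, COL3A1 in mouse 51 of S3-57 (-0.17), COL5A2 in mouse 32 of S1-78 (-0.17) and COL8A1 in mouse 40 of S2-32 (-0.17).

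The effect of treatment differed between S1-78 and S1-10, each against its own controls, by a test of the difference in log2 fold change: 5.88 for COL1A1, 4.41 for COL1A2 and 4.21 for COL3A1. Levels in the single libraries are given in the report.

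Among the 10 libraries that the authors left out, mouse 62 of Direct-78 had a summed level of the 9 members of 429 CPM, above the range of 109 to 236 CPM in Control-78, both scaled over all 78 libraries. Its total count was 658155 and its squared rank correlation with the mean 0.207. The other 2 Direct-78 libraries left out, mice 61 and 63, lay inside the control range, at 177 and 123 CPM. Below the range of their controls lay mouse 52 of S3-57, at 35.3 CPM against 140 to 552 CPM in Control-57, and mouse 58 of S3-78, at 69.3 CPM. These 2 libraries held 8 and 27 member counts.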

How the results depend on the processing

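For the 58 pairs of member and comparison with an unadjusted p under 0.05 and a fold, 562 log2 fold changes under other settings kept their direction and side of the threshold, 50 lost a call, 26 gained one and 0 reversed. The setting of the adjusted p alone changes only the call rule, so its log2 fold changes equal the reported ones. The pairs were also chosen by their p in these same data, so the tally is no independent support. For the same pairs with 1 library left out, 592 stayed on their side, 64 lost a call and 15 gained one. Calls gained by other members are outside these tallies and are in the counts. With 1 library left out, 7 medians over members were marked as moved and 215 as the same. The counts below are members called by edgeR unless DESeq2 is named, beside the count as reported. The causes of the changes in count were not tested.

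With all 78 libraries the count was 0 instead of 1 in S1-10, 1 instead of 2 in S2-32, 1 instead of 2 in S2-78, and 2 (COL1A2 and COL5A2) instead of 0 in Direct-78. It was 0 instead of 1 in S2-32 against S1-32, 4 instead of 7 in Direct-78 against S1-78, and 1 (COL1A2) instead of 3 in Control-78 against Control-10.

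With DESeq2 it was 2 instead of 1 in S1-10, 3 instead of 2 in S2-78, 1 instead of 0 in S3-78, 4 instead of 2 in S3-78 against S1-78, and 1 instead of 0 in S3-78 against S2-78. It was also 1 instead of 0 in Control-32 and in Control-57 against Control-10, 4 instead of 3 in Control-78 against Control-10, and 5 instead of 3 in the effect in S1-78 minus that in S1-10. Only the 2 groups compared gave 4 instead of 1 in S1-10, 0 instead of 3 in S1-78 and 0 instead of 2 in S2-78. The same fit gave 3 instead of 1 in S2-32 against S1-32, 0 instead of 2 in S3-78 against S1-78 and 0 instead of 7 in Direct-78 against S1-78.

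RLE and upper-quartile factors each gave 3 instead of 2 in S2-78, 5 instead of 7 in Direct-78 against S1-78, 1 instead of 0 in S3-78 and 1 instead of 2 in S3-78 against S1-78. The log2 total as a covariate gave 0 instead of 1 in S2-32 against S1-32, 0 instead of 2 in S3-78 against S1-78 and 0 instead of 7 in Direct-78 against S1-78. All panel genes gave 0 instead of 1 in S2-32 against S1-32, 6 instead of 7 in Direct-78 against S1-78 and 2 instead of 3 in Control-78 against Control-10. Genes passing filterByExpr gave 1 instead of 2 in S3-78 against S1-78 and 6 instead of 7 in Direct-78 against S1-78. Without libraries high in pancreas markers the count was 2 instead of 1 in S1-10, 3 instead of 2 in S2-78, 1 instead of 0 in S3-78, 0 instead of 2 in S3-78 against S1-78, 2 instead of 7 in Direct-78 against S1-78 and 4 instead of 3 in Control-78 against Control-10. Without the 2 kept libraries under the limit of 0.7, an alternative chosen after seeing the data, Direct-78 against S1-78 had 3, S3-78 against S1-78 had 3 and Control-78 against Control-10 had 4.

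With each library left out in turn, counts ran from 0 to 1 in S1-10, 0 to 1 in S1-32, 1 to 3 in S2-32, 1 to 3 in S2-78, 0 to 1 in S3-78 and 0 to 2 in Direct-78. They ran from 0 to 1 in S2-32 against S1-32, 0 to 4 in S3-78 against S1-78, 2 to 7 in Direct-78 against S1-78 and 0 to 2 in S3-78 against S2-78. Against Control-10 they ran from 0 to 3 in Control-32 and 1 to 3 in Control-78. The libraries are named in the report. Of the 10 genes most like the members, 9 were shared with a prior count of 0.5 and 4 without taking off group means.

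Depth limits the low members, above all in Direct-78, where 3 counts amount to 2.96 to 4.05 CPM. Groups of 3 to 6 mice from 1 experiment, whole liver and a panel without all markers leave cell numbers and RNA per cell open.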
